A study of Homo sapiens with 14 samples.

Results

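Kinesin genes encode the motor proteins that walk along microtubules or take them apart. They were taken from the count tables by symbol (KIF followed by a number, plus KIFC1, KIFC2 and KIFC3, without pseudogenes and antisense genes), which gave 41 of the 27819 genes shared by the 4 tables. Of these, 34 had a mean of 10 or more counts in the DMSO libraries and are described here, and all 34 were also kept for testing in every comparison. They comprised 13 of 15 mitotic kinesins, 16 of 17 transport kinesins and 5 of 9 other kinesins. The member nearest above the minimum was KIF26A, with a mean of 22.3 counts in DMSO, and the nearest below it was KIF6, with 6.0.

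The study asked how a line of human prostate cancer, CWR22RV1, responds to small molecules that block the addition of fucose or sialic acid to glycans. All cultures ran for 72 h and received only the vehicle DMSO (n = 3), Fucotrim I at 30 μM (n = 3), Fucotrim II at 60 μM (n = 2), SGN-2FF at 100 μM (n = 3) or P-SiaFNEtoc at 2 μM (n = 3), where n counts libraries and the doses and time come from the study's methods. Fucotrim I, Fucotrim II and SGN-2FF are inhibitors of fucosylation and P-SiaFNEtoc is an inhibitor of sialylation. The labels call the libraries of a group biological replicates without saying how the cultures were separated, so p-values measure the spread between these libraries of 1 cell line.

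The libraries held between 12553094 and 19981453 counts on genes. The same DMSO libraries serve in all 4 comparisons with an inhibitor, so these comparisons are not independent. Mitochondrially encoded genes took 5.98 to 7.03% of the counts in DMSO, 8.67 to 14.2% with Fucotrim I, 12.2 to 17.0% with Fucotrim II, 8.27 to 8.69% with SGN-2FF and 6.11 to 6.83% with P-SiaFNEtoc, and leaving these 37 genes out gave the same kinesin calls in every comparison. All 10 luminal prostate markers were expressed, from TMPRSS2 at 29.2 CPM to KRT8 at 477 CPM on average in DMSO, with FOXA1 at 432. The 6 leukocyte markers summed to at most 1.70 CPM in any library. The 6 fibroblast markers summed to 19.7 to 33.4 CPM, mostly from COL1A1. CPM, the counts of a gene scaled to library size, are after TMM scaling of all 14 libraries.

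Kinesins use ATP to move. In dividing cells a group of them separates the spindle poles, aligns chromosomes, shortens microtubule ends and builds the midbody for cytokinesis, and the mRNAs of many of these rise in G2 and mitosis and fall again in G1. Another group carries vesicles, organelles and mRNA along microtubules throughout the cell cycle, with KIF5B as the common conventional kinesin heavy chain outside neurons. Promoters of genes expressed in G2 and mitosis often hold CCAAT boxes, bound by NF-Y, and a cell cycle genes homology region (CHR), bound by the DREAM and MuvB complexes.

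The promoters are printed because most of the mitotic kinesins shared these letters and the transport kinesins with a listed promoter mostly did not. The windows come from RefSeq on GRCh38.p14 and run from 250 bases before to 50 bases after the annotated start, and capitals mark CCAAT and the CHR letters TTTGAA and TTTAAA on either strand (read as ATTGG and TTCAAA on the other strand, with TTTAAA its own complement). KIF18A, KIF20A, KIF11 and KIF4A are mitotic kinesins whose mRNA fell with Fucotrim II. KIF22 (the upstream one of its windows) is the mitotic kinesin that was not called lower in any comparison. KIF5B is the transport kinesin with the highest level.
KIF18A, chr11:28108107-28108406, minus strand: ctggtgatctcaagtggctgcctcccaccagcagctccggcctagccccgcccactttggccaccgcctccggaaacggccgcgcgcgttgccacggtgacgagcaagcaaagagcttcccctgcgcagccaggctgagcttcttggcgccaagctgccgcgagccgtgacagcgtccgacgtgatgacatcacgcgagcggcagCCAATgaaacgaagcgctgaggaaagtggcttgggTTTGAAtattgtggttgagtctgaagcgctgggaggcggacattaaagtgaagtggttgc
KIF20A, chr5:138178862-138179161, plus strand: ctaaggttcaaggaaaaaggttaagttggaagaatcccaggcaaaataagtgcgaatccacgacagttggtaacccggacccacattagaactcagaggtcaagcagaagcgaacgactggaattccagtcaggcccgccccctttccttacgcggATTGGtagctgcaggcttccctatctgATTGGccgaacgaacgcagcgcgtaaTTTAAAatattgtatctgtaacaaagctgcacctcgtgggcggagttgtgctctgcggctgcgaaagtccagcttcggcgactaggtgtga
KIF11, chr10:92592880-92593179, plus strand: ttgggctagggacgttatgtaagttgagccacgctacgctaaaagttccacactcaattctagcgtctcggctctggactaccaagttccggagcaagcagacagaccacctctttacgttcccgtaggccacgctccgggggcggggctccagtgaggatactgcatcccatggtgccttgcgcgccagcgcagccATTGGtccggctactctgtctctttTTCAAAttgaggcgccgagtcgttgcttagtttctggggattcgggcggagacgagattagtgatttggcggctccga
KIF4A, chrX:70289854-70290153, plus strand: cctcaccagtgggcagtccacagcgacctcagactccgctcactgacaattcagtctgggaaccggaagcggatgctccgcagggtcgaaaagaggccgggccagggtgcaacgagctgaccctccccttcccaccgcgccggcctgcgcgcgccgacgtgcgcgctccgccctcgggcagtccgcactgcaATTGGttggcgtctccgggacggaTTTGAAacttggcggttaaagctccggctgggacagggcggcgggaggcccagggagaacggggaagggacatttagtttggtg
KIF22, chr16:29790501-29790800, plus strand: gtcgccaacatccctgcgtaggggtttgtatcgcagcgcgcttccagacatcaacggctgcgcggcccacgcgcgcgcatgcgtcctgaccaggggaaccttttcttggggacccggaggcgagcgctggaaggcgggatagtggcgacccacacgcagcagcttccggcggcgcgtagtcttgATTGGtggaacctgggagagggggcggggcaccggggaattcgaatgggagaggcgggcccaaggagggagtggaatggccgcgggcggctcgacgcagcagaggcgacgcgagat
KIF5B, chr10:32056376-32056675, minus strand: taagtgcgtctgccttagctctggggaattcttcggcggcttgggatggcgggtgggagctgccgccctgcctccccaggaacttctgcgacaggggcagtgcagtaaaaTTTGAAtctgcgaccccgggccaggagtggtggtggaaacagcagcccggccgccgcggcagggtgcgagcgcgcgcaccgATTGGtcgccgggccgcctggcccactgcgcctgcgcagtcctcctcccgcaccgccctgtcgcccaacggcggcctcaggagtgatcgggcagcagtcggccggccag

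The CHR letters lay in the window of 11 of the 13 mitotic kinesins (all but KIF22 and KIF2A), in 11 of their 14 windows or 78.6%, against 24% of all 35116 promoter windows. Of the 16 transport kinesins, 11 had an entry, with 16 windows since some genes had several starts. The CHR letters lay in 2 of these windows (12.5%), those of KIF5B and KIF16B. KIFC2, KIF13B, KIF21B, KIFC3 and KIF5A had no entry. Among these are the transport kinesins with the largest rise with each Fucotrim (KIFC2) and with P-SiaFNEtoc (KIFC3), so the transport shares leave them out. CCAAT was found in 71.4% of the mitotic windows, 31.2% of the transport windows and 34.6% of all windows. Both kinds of letters stood together in 9 mitotic kinesins (64.3% of windows, against 9.27% of all windows and 6.25% of transport windows). In 7 of those 9, CCAAT began 23 to 35 bases before the CHR letters, and in KIF23 and KIF20B it began 9 and 122 bases before them. KIF4A and its copy KIF4B are both among the 7, at 24 bases each. Their windows are nearly alike around these letters, so the 2 genes are not separate cases in these counts. The E2F letters TTTCCCGC, TTTGGCGC, TTTGCCGC and TTTCGCGC, searched on both strands, lay in the window of 1 mitotic kinesin, KIF15, and in 3.31% of all windows. A match is a description of these letters only. The 11 mitotic kinesins with the CHR letters all fell with Fucotrim II, and so did KIF2A, without either kind of letters (log2 fold change -0.85). KIF5B, the transport kinesin with both kinds, fell with every inhibitor, but its CHR letters lay upstream of CCAAT (offsets of -140 and -59). KIF3B, with CCAAT but without the CHR letters, was also called lower with every inhibitor. KIF16B, with the CHR letters alone, was called lower with none and higher with SGN-2FF and P-SiaFNEtoc. Whether the letters go with the changes was not tested.

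**Figure D1:**
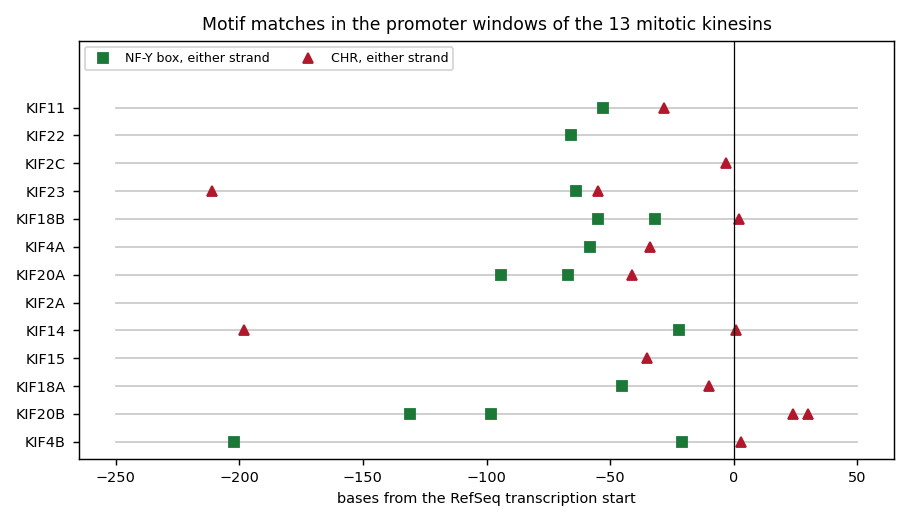
Position of CCAAT (the NF-Y box, squares) and of the CHR letters TTTGAA or TTTAAA (triangles), on either strand, in the promoter windows of the 13 mitotic kinesins, in bases from the RefSeq start (vertical line). Triangles are missing for KIF22 and KIF2A, and in most of the other genes a triangle stands within 60 bases of the start with a square to its left.

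The levels in DMSO set the scale for what follows. Per kilobase of exon, KIF5B was the most abundant kinesin mRNA at 65.1 ± 0.90 CPM per kb (SD, n = 3), followed by KIFC2, a minus-end directed motor, at 35.7 ± 2.83 and KIF11, the plus-end motor that pushes spindle poles apart, at 32.9 ± 1.01. The libraries of KIFC2 and KIF11 overlapped on this scale. KIF2C, which takes microtubule ends apart at centromeres, came next at 30.4 ± 0.79 CPM per kb, and the range ended at KIF26A with 0.183 ± 0.038. The median level was 15.4 CPM per kb over the mitotic kinesins, 5.72 over the transport kinesins and 0.993 over the others. Among the neuronal motors, KIF5A and KIF5C stood at 0.517 and 0.473 CPM per kb and KIF1A at 7.91. The length used was that of all annotated exons of a gene merged, 33.2 kb for KIF5C and 12.2 kb for KIF5A. Without division by length KIF5C stood at 15.7 CPM and KIF5A at 6.33. The order of genes and the gap between the classes thus depend in part on this choice of length.

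Fucotrim I lowered most of the mitotic kinesins. It left 11 of 13 lower, 1 higher (KIF22) and 1 not called (KIF20B), while of the 16 transport kinesins 5 were lower, 2 higher and 9 not called. A gene is called where the Benjamini-Hochberg adjusted p of edgeR's quasi-likelihood test over all genes tested was under 0.05. In this comparison 43.8% of all 14188 genes were called, 22.1% lower and 21.6% higher, so the share of mitotic kinesins called lower stood above that of all genes. The libraries of Fucotrim I lay wholly below those of DMSO for 17 of the 34 kinesins and wholly above for 5, as did 27.4% and 25.2% of all genes. The median log2 fold change was -0.46 over the mitotic kinesins, -0.13 over the transport kinesins and 0.13 over the 5 other kinesins, where the median of all genes was 0.0012. In bulk RNA, fewer cells in division and less of these mRNAs in each cell cannot be told apart.

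With Fucotrim II the changes of the mitotic kinesins were larger. All but KIF22 were lower (12 of 13), and of the transport kinesins 8 were lower, 4 higher and 4 not called. Here 51.4% of all 14617 genes were called, 25.7% lower and 25.6% higher. The median log2 fold change was -0.98 over the mitotic kinesins, -0.23 over the transport kinesins and 0.09 over the 5 others, none of which was called. The libraries of Fucotrim II lay wholly below those of DMSO for 12 of the 13 mitotic kinesins and 8 of the 16 transport kinesins, and wholly above for 5 of the 34, where 33.8% of all genes lay below and 33.8% above.

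The medians of the mitotic and of the transport kinesins lay nearer to 0 with P-SiaFNEtoc than with either Fucotrim, and with SGN-2FF nearer to 0 than with Fucotrim II. With SGN-2FF 4 mitotic kinesins were lower (KIF11, KIF14, KIF4A and KIF2C) and 9 not called, and 4 transport kinesins were lower, 1 higher and 11 not called, where 20.6% of all 14312 genes were called, 9.08% lower and 11.5% higher. The median log2 fold change was -0.14 over the mitotic and -0.12 over the transport kinesins. With P-SiaFNEtoc 8 mitotic kinesins were lower and 5 not called, and 3 transport kinesins were lower, 4 higher and 9 not called, where 16.3% of all 14259 genes were called, 7.33% lower and 9.02% higher. Its medians were -0.18 over the mitotic kinesins, -0.06 over the transport kinesins and -0.26 over the 5 other kinesins, none of which was called with either inhibitor. The treated libraries lay wholly below DMSO for 14 of the 34 kinesins with SGN-2FF and 15 with P-SiaFNEtoc (19.5% and 17.2% of all genes), and wholly above for 2 and 4 (16.9% and 16.6%). Without P-SiaFNEtoc replicate 2 the kinesins called fell from 15 to 9 (KIF13B, KIF18B, KIF1C, KIF3A, KIF3B and KIF4A were lost), and without SGN-2FF replicate 2 from 9 to 6 (KIF14, KIF2C and KIF4A were lost). The SGN-2FF call of KIF14 was also lost without SGN-2FF replicate 1 or DMSO replicate 2 or 3, and leaving out 1 of several other libraries removed the P-SiaFNEtoc calls of KIF18B, KIF3B, KIF4A and KIF2A. In 1 fit of all 14 libraries only 4 of the 15 P-SiaFNEtoc calls were kept, those of KIF11, KIF18A, KIF16B and KIFC3, and the other 11 were lost (KIF14, KIF15, KIF18B, KIF23, KIF2A, KIF4A, KIF5B, KIF3A, KIF3B, KIF13B and KIF1C). The same fit lost the SGN-2FF calls of KIF14 and KIF2C.

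**Figure D2:**
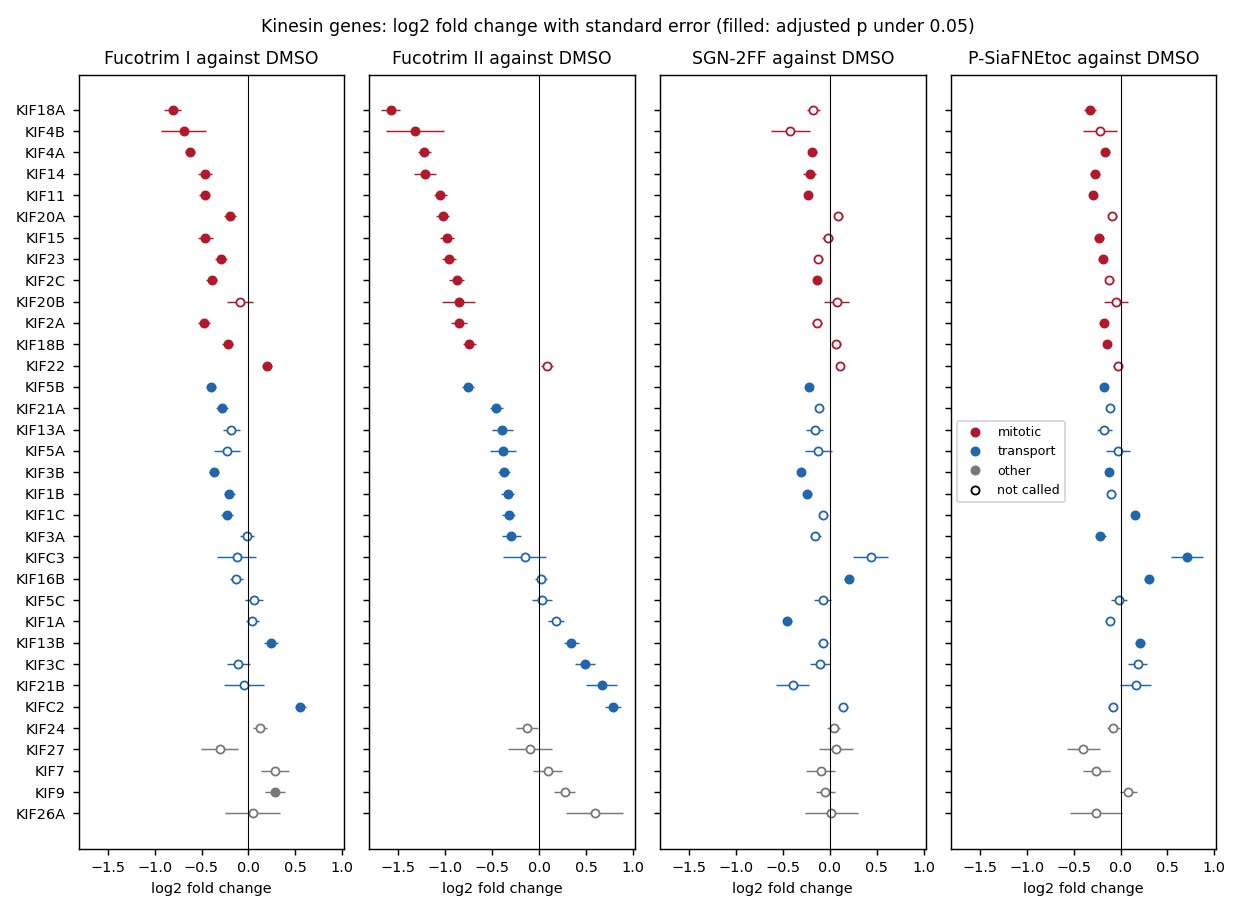
Log2 fold change of each of the 34 kinesins against DMSO (horizontal axis) with its standard error, 1 panel per inhibitor, coloured by class and filled where the adjusted p was under 0.05. With Fucotrim I and Fucotrim II the red points of the mitotic kinesins lie to the left of 0 down to -0.81 and -1.58, apart from KIF22, while the blue transport kinesins lie on both sides.

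Summed over the 13 mitotic kinesins, the level was 1022 ± 33.7 CPM in DMSO (SD, n = 3), 826 ± 40.2 with Fucotrim I (SD, n = 3), 591 ± 0.95 with Fucotrim II (SD, n = 2), 961 ± 8.39 with SGN-2FF (SD, n = 3) and 908 ± 17.8 with P-SiaFNEtoc (SD, n = 3). The sum over the 16 transport kinesins was 1381 ± 28.5, 1283 ± 9.55, 1263 ± 20.3, 1240 ± 11.1 and 1322 ± 30.8 CPM in the same order. Mitotic kinesins made up 40.8 to 43.0% of the summed kinesin CPM in the DMSO libraries, 36.8 to 38.9% with Fucotrim I and 30.6 to 31.3% with Fucotrim II. The Fucotrim I and Fucotrim II libraries thus lay below every DMSO library in this share. The shares with SGN-2FF were 42.5 to 42.7% and those with P-SiaFNEtoc 39.0 to 41.0%, and both ranges overlapped that of DMSO.

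**Figure D3:**
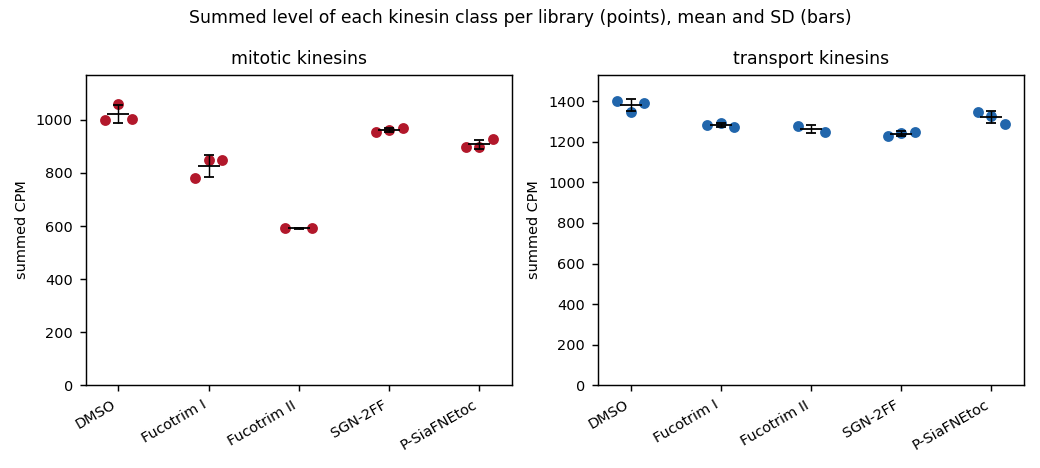
Summed CPM of the 13 mitotic kinesins (left) and the 16 transport kinesins (right) in each of the 14 libraries (points), with mean and SD (bars). The mitotic sum was 591 CPM on average with Fucotrim II against 1022 in DMSO. The transport sum ran from 1228 to 1401 CPM over all libraries, and every treated library lay below every DMSO library. For P-SiaFNEtoc replicate 1 this was narrow, at 1347.95 CPM against 1348.28 in DMSO replicate 2.

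The spindle motors came first among the changes. KIF18A (NCBI gene 81930, hg38 chromosome 11) limits chromosome movement at the spindle equator. Its level stood at 28.8, 33.2 and 31.4 CPM in DMSO, at 15.5, 19.9 and 17.8 with Fucotrim I and at 10.5 and 10.4 with Fucotrim II. For KIF18A, the SGN-2FF libraries held 28.2, 26.7 and 27.3 CPM and the P-SiaFNEtoc libraries 24.9, 24.6 and 24.7. Every treated library was below the lowest DMSO library. The log2 fold change was -0.81 with Fucotrim I (standard error 0.09, and an adjusted p by edgeR of 8.09e-07) and -1.58 with Fucotrim II (standard error 0.10, adjusted p = 9.31e-06). It was the largest fall among the called kinesins with each of them, and with P-SiaFNEtoc too, at -0.33 (adjusted p = 0.00104 by edgeR). With SGN-2FF the value of -0.17 was not called (adjusted p = 0.0731 by edgeR), but was called without DMSO replicate 1. KIF18B, its relative that works on astral microtubules, fell by 0.22, 0.75 and 0.14 with Fucotrim I, Fucotrim II and P-SiaFNEtoc, and with SGN-2FF it was at 0.07, which was not called.

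KIF11 stood at 171, 181 and 173 CPM in DMSO, at 114, 135 and 129 with Fucotrim I and at 86.6 and 82.9 with Fucotrim II. For KIF11, the SGN-2FF libraries held 143, 146 and 155 CPM and the P-SiaFNEtoc libraries 145, 142 and 141. No treated library reached the DMSO range. KIF11 was called lower with all 4 inhibitors, by log2 fold changes of -0.47, -1.05, -0.23 and -0.29 in the order Fucotrim I, Fucotrim II, SGN-2FF and P-SiaFNEtoc (adjusted p = 2.77e-06, 8.15e-06, 0.000332 and 7.52e-06 by edgeR). KIF15, which backs up KIF11 at the spindle, stood at 51.4, 54.5 and 50.6 CPM in DMSO, 32.3, 40.6 and 40.6 with Fucotrim I and 27.3 and 25.7 with Fucotrim II, with 51.0, 48.0 and 54.2 for SGN-2FF and 45.1, 45.0 and 43.4 for P-SiaFNEtoc. The SGN-2FF libraries of KIF15 overlapped those of DMSO (log2 fold change -0.02, not called), and the others lay below (-0.46, -0.98 and -0.22, all called).

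The kinesins of the anaphase spindle and the midbody were lowest with Fucotrim II. KIF20A, which brings the chromosomal passenger complex to the midzone, stood at 83.0, 87.0 and 82.0 CPM in DMSO, at 65.5, 74.2 and 80.4 with Fucotrim I and at 40.7 and 42.1 with Fucotrim II. For KIF20A, the SGN-2FF libraries held 86.4, 90.1 and 89.3 CPM and the P-SiaFNEtoc libraries 73.6, 81.1 and 82.9. With Fucotrim I the highest library came close to the lowest DMSO library, and the log2 fold change of -0.19 (standard error 0.07) lost its call without DMSO replicate 2 or Fucotrim I replicate 1. With Fucotrim II it was -1.03 (standard error 0.07, adjusted p = 9.64e-06 by edgeR), and neither SGN-2FF (0.09) nor P-SiaFNEtoc (-0.09) was called. KIF23, the motor of the centralspindlin complex, stood at 98.9, 108 and 97.4 CPM in DMSO, 78.0, 90.8 and 79.1 with Fucotrim I, 54.3 and 50.2 with Fucotrim II, 90.3, 93.7 and 92.2 with SGN-2FF and 86.3, 88.4 and 91.5 with P-SiaFNEtoc. All 11 treated libraries of KIF23 were under the DMSO range, with log2 fold changes of -0.29, -0.96 and -0.19 that were called and one of -0.13 with SGN-2FF that was not. KIF14, which acts with citron kinase in cytokinesis, stood at 53.1, 60.7 and 55.1 CPM in DMSO, 37.2, 44.8 and 39.9 with Fucotrim I, 27.7 and 21.1 with Fucotrim II, 42.3, 49.9 and 51.8 with SGN-2FF and 47.8, 46.4 and 45.2 with P-SiaFNEtoc. It was called lower with each of them (log2 fold changes -0.47, -1.21, -0.22 and -0.27), with no overlap with DMSO. KIF20B, also a cytokinesis motor, was called lower with Fucotrim II only among the comparisons with DMSO (-0.86, adjusted p = 0.00307 by edgeR) and with Fucotrim I its 95% interval ran from -0.36 to 0.18.

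Chromokinesins bind chromosome arms. KIF4A, which also sets the length of midzone microtubules, stood at 96.3, 92.3 and 92.4 CPM in DMSO, at 57.4, 61.8 and 62.8 with Fucotrim I and at 39.1 and 41.5 with Fucotrim II. For KIF4A, the SGN-2FF libraries held 86.5, 78.5 and 79.9 CPM and the P-SiaFNEtoc libraries 81.0, 83.0 and 86.7. All 4 groups lay below DMSO and all were called, with log2 fold changes of -0.62, -1.22, -0.19 and -0.16. KIF4B, a copy of KIF4A without introns that shares 2.1% of its 100-base windows with it, was at 2.69, 4.06 and 3.07 CPM in DMSO, 1.58, 1.76 and 2.85 with Fucotrim I, 0.902 and 1.70 with Fucotrim II, 1.97, 2.56 and 2.74 with SGN-2FF and 3.08, 2.65 and 2.65 with P-SiaFNEtoc. It held 15 to 73 counts a library, the counting could have moved reads between the copies, and its call with Fucotrim I (-0.69) was lost in 5 of 15 alternatives, while that with Fucotrim II (-1.33) was kept in all 15. KIF22, the chromokinesin that pushes chromosome arms outward, went the other way, at 137, 144 and 137 CPM in DMSO, 155, 158 and 165 with Fucotrim I and 142 and 154 with Fucotrim II. For KIF22, the SGN-2FF libraries held 149, 149.7 and 148 CPM and the P-SiaFNEtoc libraries 134, 129 and 146. KIF22 was called higher with Fucotrim I (0.20, adjusted p = 0.00365 by edgeR) and not called with Fucotrim II, where its log2 fold change of 0.08 had a 95% interval of -0.04 to 0.21.

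The motors that remove tubulin from microtubule ends were lower too. KIF2C stood at 109, 114 and 109 CPM in DMSO, 83.5, 80.6 and 89.1 with Fucotrim I and 55.6 and 65.4 with Fucotrim II. For KIF2C, the SGN-2FF libraries held 103, 96.8 and 101 CPM and the P-SiaFNEtoc libraries 99.7, 99.6 and 107. All were below DMSO, with log2 fold changes of -0.39 and -0.88 for Fucotrim I and Fucotrim II, -0.14 for SGN-2FF, a call lost in 6 of 15 alternatives, and -0.12 for P-SiaFNEtoc, not called. KIF2A, which also works at spindle poles and in neurons, stood at 66.1, 69.6 and 63.7 CPM in DMSO, 46.9, 50.3 and 45.6 with Fucotrim I, 39.5 and 34.3 with Fucotrim II, 60.8, 60.8 and 58.0 with SGN-2FF and 58.3, 60.9 and 56.5 with P-SiaFNEtoc. Its log2 fold changes were -0.48, -0.85, -0.14 (not called) and -0.18. On the opposite strand DIMT1 overlaps 18.7% of the exon bases of KIF2A, and DIMT1 was at -0.14 with Fucotrim I (not called) and -0.31 with Fucotrim II (called lower).

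**Figure D4:**
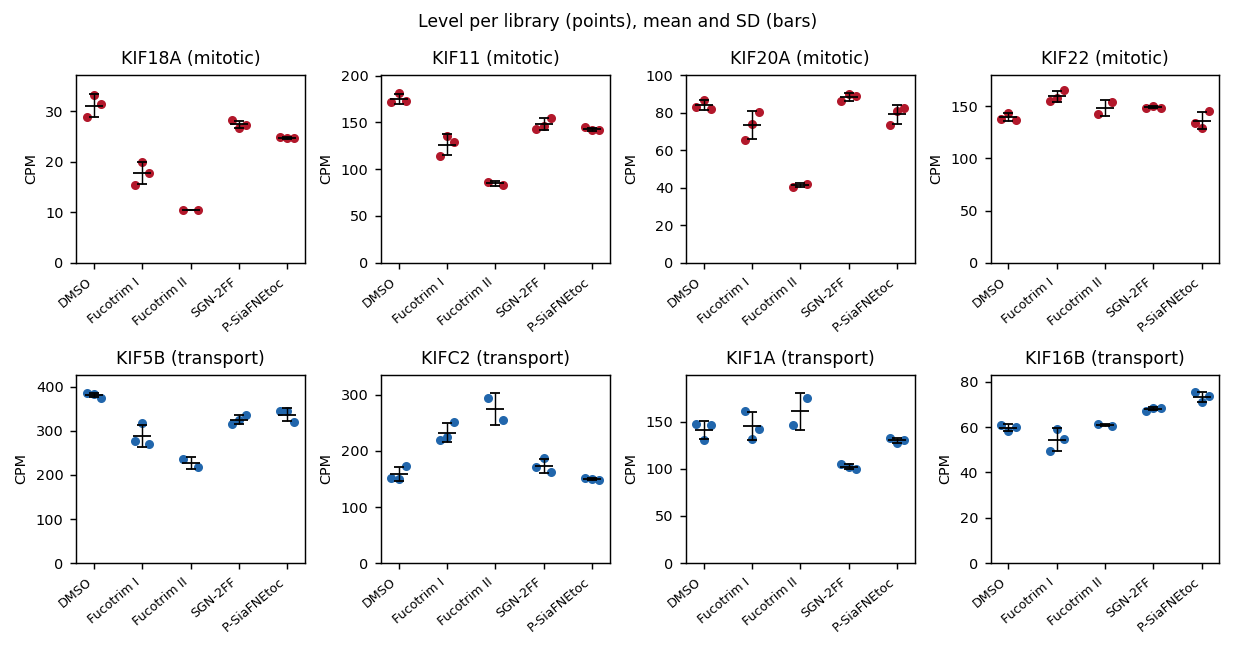
CPM of 4 mitotic kinesins (KIF18A, KIF11, KIF20A and KIF22) and 4 transport kinesins (KIF5B, KIFC2, KIF1A and KIF16B) in each of the 14 libraries (points) with mean and SD (bars), on axes that start at 0. KIF18A falls to 10.5 and 10.4 CPM with Fucotrim II, KIFC2 rises to 295 and 255, and KIF1A is lowest with SGN-2FF.

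Of the cargo motors, KIF5B fell with every inhibitor. It stood at 385, 385 and 376 CPM in DMSO, at 277, 318 and 270.01 with Fucotrim I and at 236 and 218 with Fucotrim II. For KIF5B, the SGN-2FF libraries held 315, 325 and 336 CPM and the P-SiaFNEtoc libraries 346, 344 and 321. None overlapped DMSO, and the log2 fold changes of -0.40, -0.75, -0.22 and -0.18 were all called (adjusted p = 7.84e-06, 2.94e-05, 7.91e-05 and 0.00257 by edgeR). Of its neuronal paralogs, KIF5A was called lower with Fucotrim II only (-0.38), a call lost whichever of the 5 libraries was left out. KIF5C was called with no inhibitor.

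Kinesin-2 motors drive transport in cilia and of vesicles, with KIF3B or KIF3C as the partner of KIF3A. KIF3B stood at 115, 118 and 119 CPM in DMSO, 92.5, 90.9 and 87.1 with Fucotrim I, 87.9 and 93.0 with Fucotrim II, 96.7, 89.6 and 96.0 with SGN-2FF and 109, 106 and 106 with P-SiaFNEtoc. It was called lower with all 4 (-0.37, -0.38, -0.31 and -0.13). KIF3A stood at 41.1, 42.2 and 41.3 CPM in DMSO, 35.5, 43.8 and 43.8 with Fucotrim I, 38.1 and 29.9 with Fucotrim II, 37.0, 37.7 and 36.4 with SGN-2FF and 37.1, 34.5 and 35.3 with P-SiaFNEtoc. Its log2 fold change of -0.30 with Fucotrim II lost its call without any DMSO library or without Fucotrim II replicate 2, and that with P-SiaFNEtoc was -0.21 (called) and with Fucotrim I -0.02 (not called). KIF3C moved opposite to KIF3B with Fucotrim II, at 9.24, 9.12 and 10.1 CPM in DMSO and 13.1 and 13.6 with Fucotrim II (log2 fold change 0.49, adjusted p = 0.00414 by edgeR). For KIF3C, the other libraries held 10.04, 7.90 and 8.37 CPM with Fucotrim I, 8.41, 8.97 and 8.74 with SGN-2FF and 10.8, 9.84 and 11.5 with P-SiaFNEtoc, none of them called.

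Kinesin-3 motors carry synaptic vesicle precursors, mitochondria, lysosomes and endosomes. KIF1A stood at 148, 130.2 and 146 CPM in DMSO and 105, 102 and 100.2 with SGN-2FF, which is -0.45 on the log2 scale (standard error 0.05, adjusted p = 8.57e-08 by edgeR) and the largest fall among the called kinesins with that inhibitor. For KIF1A, the other libraries held 161, 132 and 142 CPM with Fucotrim I, 147 and 175 with Fucotrim II and 133, 128 and 130.1 with P-SiaFNEtoc, and none of these was called (0.04, 0.18 and -0.11). The difference between SGN-2FF and the other inhibitors was not tested. KIF1B stood at 96.5, 87.2 and 92.7 CPM in DMSO, 83.2, 79.2 and 77.0 with Fucotrim I, 74.2 and 72.7 with Fucotrim II, 75.6, 76.2 and 80.5 with SGN-2FF and 89.6, 87.7 and 79.8 with P-SiaFNEtoc. Its log2 fold changes were -0.20, -0.33 and -0.24, all called, and -0.10 with P-SiaFNEtoc, not called, and the call with Fucotrim I was lost without DMSO replicate 1.

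KIF1C stood at 147, 129 and 135 CPM in DMSO, 122, 108 and 119 with Fucotrim I, 106 and 113 with Fucotrim II, 132, 129.9 and 126 with SGN-2FF and 149, 149.9 and 157 with P-SiaFNEtoc. It was lower with Fucotrim I (-0.23) and Fucotrim II (-0.33) and higher with P-SiaFNEtoc (0.16), the last being lost in 6 of 15 alternatives, among them leaving out DMSO replicate 2 or 3 or P-SiaFNEtoc replicate 2 or 3. KIF16B, which carries early endosomes, stood at 61.0, 58.2 and 60.2 CPM in DMSO, 49.3, 59.3 and 54.9 with Fucotrim I, 61.3 and 60.6 with Fucotrim II, 67.3, 68.3 and 68.6 with SGN-2FF and 75.3, 71.1 and 74.0 with P-SiaFNEtoc. All SGN-2FF and P-SiaFNEtoc libraries were above DMSO, with log2 fold changes of 0.20 (adjusted p = 0.00488 by edgeR) and 0.30 (adjusted p = 5.2e-05 by edgeR) that were called in all 15 alternatives each. KIF13B, which carries phosphoinositide cargo and endocytic receptors, stood at 61.5, 54.6 and 63.5 CPM in DMSO, 77.9, 65.3 and 68.5 with Fucotrim I, 72.2 and 80.1 with Fucotrim II, 57.0, 57.2 and 55.2 with SGN-2FF and 70.3, 71.6 and 64.4 with P-SiaFNEtoc. The Fucotrim I, Fucotrim II and P-SiaFNEtoc libraries lay above DMSO (0.24, 0.34 and 0.21, all called). The first call was lost without DMSO replicate 2 or Fucotrim I replicate 1, and the third without DMSO replicate 2 or P-SiaFNEtoc replicate 1 or 2. Its paralog KIF13A was called lower with Fucotrim II (-0.39), a call that leaving out DMSO replicate 1 removed.

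The C-type motors and the kinesin-4 motors of transport completed the set. KIFC2 stood at 152, 151 and 173 CPM in DMSO, at 220.3, 225 and 252 with Fucotrim I and at 295 and 255 with Fucotrim II. For KIFC2, the SGN-2FF libraries held 171, 187 and 163 CPM and the P-SiaFNEtoc libraries 151, 149.5 and 148. KIFC2 had the largest rise of a kinesin with Fucotrim I (0.55, standard error 0.06, adjusted p = 6.38e-07 by edgeR) and with Fucotrim II (0.79, standard error 0.09, adjusted p = 9.96e-05 by edgeR), and was not called with SGN-2FF or P-SiaFNEtoc. FOXH1 overlaps 17.8% of its exon bases on the opposite strand and held 1 to 16 counts a library, against 2142 or more for KIFC2.

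KIFC3, which acts at cell junctions and the Golgi, stood at 2.42, 3.50 and 3.51 CPM in DMSO and 5.29, 5.93 and 4.10 with P-SiaFNEtoc (0.71, adjusted p = 0.00414 by edgeR), the largest rise with that inhibitor. For KIFC3, the other libraries held 2.73, 2.43 and 3.52 CPM with Fucotrim I, 2.65 and 3.00 with Fucotrim II and 3.41, 3.92 and 5.32 with SGN-2FF, and none was called. KIF21A, which holds microtubule growth in check, was called lower with Fucotrim I (-0.28) and Fucotrim II (-0.46). Its paralog KIF21B stood at 3.74, 4.002 and 4.39 CPM in DMSO and 5.71 and 7.13 with Fucotrim II, a log2 fold change of 0.67 (adjusted p = 0.00754 by edgeR). For KIF21B, the other libraries held 2.58, 3.65 and 5.61 CPM with Fucotrim I, 2.73, 2.91 and 3.49 with SGN-2FF and 5.53, 4.35 and 3.40 with P-SiaFNEtoc, none called. Of the neuroendocrine markers, 3 were tested and all 3 (CHGB, SYP and ENO2) were called higher with Fucotrim II, where the list summed to 470 to 505 CPM against 375 to 390 in DMSO, and the part of such cells in the rises of KIF21B and KIF3C was not tested.

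Of the 5 other kinesins, 1 call was made. KIF9, a motor of cilia and flagella, stood at 13.9, 14.9 and 12.1 CPM in DMSO, 15.5, 15.7 and 18.8 with Fucotrim I, 16.2 and 16.9 with Fucotrim II, 11.4, 15.3 and 12.3 with SGN-2FF and 15.2, 14.3 and 13.8 with P-SiaFNEtoc. Its log2 fold change with Fucotrim I was 0.29 (adjusted p = 0.0346 by edgeR), a call lost in 5 of 15 alternatives, and 17.8% of its exon bases are overlapped on the opposite strand. KIF7 and KIF27 of the Hedgehog pathway and cilia, KIF24 of the centriole and KIF26A were called in no comparison, with log2 fold changes from -0.40 to 0.59.

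The Fucotrims were also set against each other without DMSO. Fucotrim II left 11 of the 13 mitotic kinesins lower than Fucotrim I and none higher, where 9.5% of all 14378 genes were called, 3.46% lower and 6.04% higher. The median log2 fold change was -0.59 over the mitotic and -0.02 over the transport kinesins, of which 1 was lower (KIF5B, -0.35) and 1 higher (KIF3C, 0.61). KIF20A differed most (-0.82, standard error 0.10, adjusted p = 0.000364 by edgeR), followed by KIF18A (-0.76), KIF20B (-0.76), KIF14 (-0.74) and KIF23 (-0.66). KIF22 (-0.10, 95% interval -0.26 to 0.05) and KIF4B (-0.63, 95% interval -1.34 to 0.08) were not called. The libraries of Fucotrim II lay wholly below those of Fucotrim I for 18 of the 34 kinesins and wholly above for 4, against 21% and 21.2% of all genes. The doses differed, so compound and dose cannot be told apart. Without Fucotrim I replicate 3 the number called lower was 7 in place of 12 and without Fucotrim I replicate 2 it was 8, with KIF3C not called in either case.

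**Figure D5:**
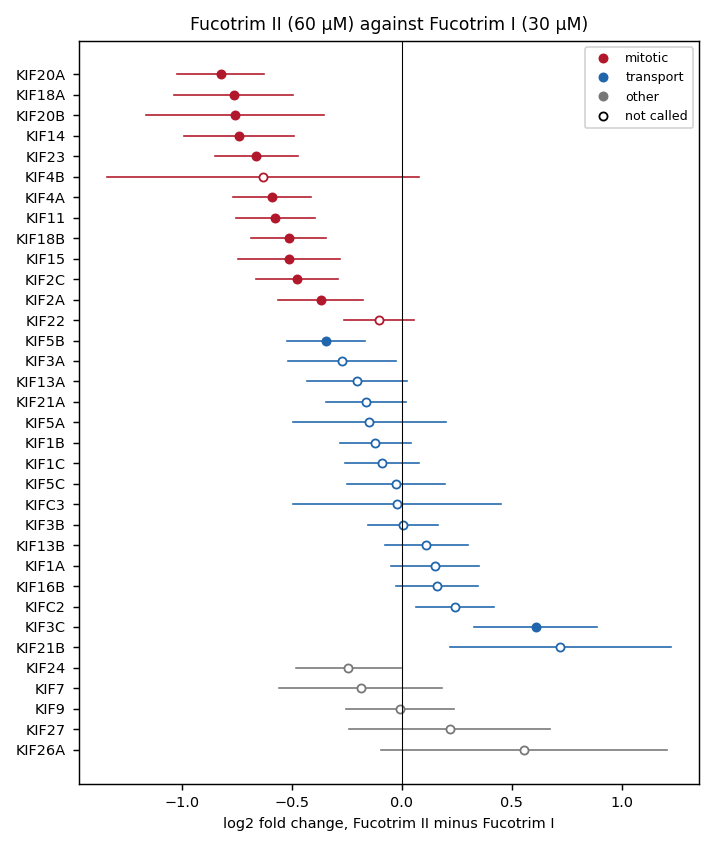
Log2 fold change of Fucotrim II (60 μM, 2 libraries) against Fucotrim I (30 μM, 3 libraries) for the 34 kinesins, with the 95% interval (lines), filled where the adjusted p was under 0.05. The mitotic kinesins lie between -0.82 and -0.10 and the transport kinesins between -0.35 and 0.72.

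Most partners of the mitotic motors were also lower. Of 16 spindle partners, 14 were lower and 1 higher with Fucotrim I, 15 lower and 1 higher with Fucotrim II, 6 lower and 1 higher with SGN-2FF and 10 lower and 1 higher with P-SiaFNEtoc, with median log2 fold changes of -0.32, -0.84, -0.09 and -0.14. Of all genes, 22.1%, 25.7%, 9.08% and 7.33% were called lower and 21.6%, 25.6%, 11.5% and 9.02% higher in the same order. CENPE, the kinetochore motor that is a kinesin by protein but not by symbol, stood at 79.0, 82.8 and 75.9 CPM in DMSO, at 40.4, 53.5 and 51.5 with Fucotrim I and at 25.3 and 22.6 with Fucotrim II. For CENPE, the SGN-2FF libraries held 74.5, 70.7 and 79.8 CPM and the P-SiaFNEtoc libraries 66.8, 65.2 and 62.3. Its log2 fold changes were -0.71, -1.73 and -0.29 with Fucotrim I, Fucotrim II and P-SiaFNEtoc, each the largest of the list, and -0.07 with SGN-2FF, not called. ECT2, which activates RhoA at the midzone, fell by 0.54 with Fucotrim I. AURKA, the spindle pole kinase, fell by 1.22 with Fucotrim II and by 0.25 with P-SiaFNEtoc. The largest values of the list with SGN-2FF were those of BIRC5 (-0.19) and INCENP (-0.18) of the chromosomal passenger complex. NUMA1, which anchors dynein at the cortex and poles, was the partner called higher with each inhibitor (0.16, 0.37, 0.13 and 0.13 in the order Fucotrim I, Fucotrim II, SGN-2FF and P-SiaFNEtoc).

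The cargo adaptors moved in both directions. Of 16, 3 were lower and 6 higher with Fucotrim I, 4 lower and 7 higher with Fucotrim II, none lower and 4 higher with SGN-2FF and none lower and 1 higher with P-SiaFNEtoc. The shares called lower with Fucotrim I and Fucotrim II (18.8 and 25.0%) were under those of all genes (22.1 and 25.7%), and the shares called higher (37.5 and 43.8%) stood beside 21.6 and 25.6% of all genes. With SGN-2FF 25.0% were higher against 11.5% of all genes, and with P-SiaFNEtoc 6.25% against 9.02%. MAPK8IP3, a scaffold that links kinesin-1 to vesicles, stood at 69.8, 81.5 and 76.1 CPM in DMSO, 111, 128 and 142 with Fucotrim I and 173 and 132 with Fucotrim II. Its log2 fold changes of 0.75, 1.00 and 0.40 with Fucotrim I, Fucotrim II and SGN-2FF were the largest of the list, and that of 0.10 with P-SiaFNEtoc was not called. RHOT2, which ties kinesin-1 to mitochondria, rose by 0.44 with Fucotrim I. KLC4, a kinesin light chain, rose by 0.62, 0.37 and 0.40 with Fucotrim II, SGN-2FF and P-SiaFNEtoc. KLC1, the light chain of KIF5 motors, was at -0.19 and -0.20 with Fucotrim I and Fucotrim II, both called lower, and at -0.13 and -0.07 with SGN-2FF and P-SiaFNEtoc, not called. KIFAP3, the third subunit of kinesin-2, was called with no inhibitor (-0.02, -0.15, -0.07 and -0.08).

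The 7 kinesins under the count minimum were not read as differences. KIF2B was at 0 counts in all 14 libraries, and KIF25 and KIF19 had at most 2 and 1. KIF6, KIF17 and KIF26B had means of 6.0, 5.67 and 1.67 counts in DMSO. KIFC1, the minus-end motor that clusters spindle poles, was listed at 5 counts or fewer in 13 libraries and at 109 in P-SiaFNEtoc replicate 2.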

How the data were processed

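Stranded mRNA libraries of 14 cultures were measured. The authors mapped single reads to hg38 with HISAT2 and counted them with featureCounts in Galaxy, and the deposited counts are raw whole numbers. Each inhibitor has a table of its own that also holds the DMSO libraries, with genes listed by NCBI gene number. The annotation release, strand setting and handling of reads with several positions are not given in the sources used here. SGN-2FF genes were matched by gene number.

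Each comparison was fitted alone with edgeR 4.0.16 in R 4.3.3 (filterByExpr with minimum count 10 and minimum total 15, TMM, robust quasi-likelihood test), with Benjamini-Hochberg adjustment over all genes tested and a threshold of 0.05. The test was run on counts simulated from the statistical model that it assumes, with independent libraries and a spread estimated from these data. Such a check cannot show how the test does where real libraries are paired or depart from that model. Standard errors were taken from the fold change and its F statistic, and 95% intervals are the fold change ± 1.96 standard errors. This multiple leaves out the few degrees of freedom of the test, so the intervals are too narrow. For KIF1A with Fucotrim II the interval ran from 0.009 to 0.353, while the unadjusted p by edgeR was 0.068. The depth, 12553094 to 19981453 counts, limits members with few reads: 8 of the 34 had under 100 counts in at least 1 library. Levels per kilobase used the merged exons of all transcripts of a gene in GENCODE v44. Shared 100-base windows and overlapping exons came from the same annotation.

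Values per library are given for the 4 largest falls and 4 largest rises among called members in each comparison with DMSO and for KIF11, KIF2C, KIF20A, KIF23, KIF18A, KIFC1, KIF5B, KIF3A, KIF1B and KIF13B, and partners by the 2 largest called changes of each list plus CENPE, KLC1 and KIFAP3. NUMA1 was named after its values were seen. The members, classes and lists were chosen with earlier results of these data known. Alternatives were DESeq2 1.42.0 (size factors, and its test), limma-voom (limma 3.58.1), other count filters, an adjusted p under 0.01, no mitochondrially encoded genes, 1 fit of all libraries, replicate blocks, leaving out each library, leaving out KIF2A and a minimum mean of 50 counts. One further gene of the family is not reported here.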

Additional observations from a re-analysis of the deposited data

How the results depend on the processing

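Among the named kinesins, no called value changed sign in any alternative run. KIF3A, not called with Fucotrim I, ran from -0.070 to 0.085 with single libraries left out, in place of -0.02, with 0.085 without Fucotrim I replicate 1 (adjusted p = 0.355 by edgeR). Leaving out 1 library at a time gave 14 to 16 kinesins lower and 3 to 4 higher with Fucotrim I, 17 to 20 and 4 to 7 with Fucotrim II, 5 to 9 and 1 to 2 with SGN-2FF, 7 to 11 and 2 to 4 with P-SiaFNEtoc, and 7 to 14 and 0 to 3 for Fucotrim II against Fucotrim I. The median of the transport kinesins then ran from -0.29 to -0.18 with Fucotrim II, from -0.087 (without DMSO replicate 2) to -0.0020 (without P-SiaFNEtoc replicate 3) with P-SiaFNEtoc, in place of -0.06, and from -0.071 to 0.0042 between the Fucotrims. Without a filter on low counts, 2 kinesins were higher with SGN-2FF and 2 between the Fucotrims. An adjusted p under 0.01 left 6 lower and 2 higher with P-SiaFNEtoc and 0 higher between the Fucotrims. In 1 fit of all 14 libraries, 2 were lower and 2 higher with P-SiaFNEtoc and 3 higher between the Fucotrims.

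Libraries with the same number in their titles did not all deviate together (correlations with DMSO of 0.24, 0.29 and 0.03 for Fucotrim I, -0.33 and -0.43 for Fucotrim II, 0.16, -0.064 and -0.17 for SGN-2FF and -0.072, 0.088 and 0.026 for P-SiaFNEtoc), so the numbers were not taken to pair the samples. By the numbers in the library names, which differ from the titles for Fucotrim II, its correlations were 0.43 and 0.17 with DMSO and 0.46 and -0.051 with Fucotrim I. The deviations of 2 libraries from their mean are mirror images, so these values and those by the titles are not separate observations. The 0.43 is the -0.43 by the titles with its sign turned. At most this is a hint of pairing from the data and not from the design. With a replicate block by the titles, 21, 21, 9 and 15 kinesins were called with Fucotrim I, Fucotrim II, SGN-2FF and P-SiaFNEtoc, against 20, 24, 9 and 15 without it, and 6 were lower between the Fucotrims in place of 12. A replicate block by the library names gave 25 calls with Fucotrim II, a median of -0.28 over the transport kinesins, and 14 calls between the Fucotrims. Of all genes, the block by titles called 7288 in place of 6209 with Fucotrim I, 5300 in place of 7511 with Fucotrim II and 358 in place of 1366 between the Fucotrims, and that by library names called 7779 and 2810 for the last 2. With the 2 Fucotrim II libraries, and members of few counts, small differences were not detectable.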

Other observations

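Dynein, the motor that walks toward microtubule minus ends, and its cofactor dynactin had smaller median changes than the mitotic kinesins (log2 fold changes of -0.08 with Fucotrim I, -0.18 with Fucotrim II, -0.05 with SGN-2FF and -0.02 with P-SiaFNEtoc). Of 18 subunits and adaptors, 6 were lower and 3 higher with Fucotrim I, 8 lower and 1 higher with Fucotrim II, 1 lower and 1 higher with SGN-2FF, and 2 lower and 1 higher with P-SiaFNEtoc. These are 33.3, 44.4, 5.56 and 11.1% lower and 16.7, 5.56, 5.56 and 5.56% higher, where 22.1, 25.7, 9.08 and 7.33% of all genes were lower and 21.6, 25.6, 11.5 and 9.02% higher. DCTN5, a subunit of the pointed end of dynactin, was lower with each inhibitor (-0.20, -0.42, -0.20 and -0.18 in the order Fucotrim I, Fucotrim II, SGN-2FF and P-SiaFNEtoc). DYNC1I1, an intermediate chain used in neurons, had the largest change with Fucotrim II (-1.49, adjusted p = 0.0349 by edgeR), at a mean of 0.832 CPM in DMSO. DYNLT1, a dynein light chain, was higher with Fucotrim I (0.24) and SGN-2FF (0.16), and DYNLT3, another light chain, was higher with P-SiaFNEtoc (0.20) and lower with Fucotrim I (-0.24) and Fucotrim II (-0.30). Between the Fucotrims 17 of the 18 were tested and none was called.

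KIFC1 lies on chromosome 6, where 20 other protein-coding genes start within 300 kb of it. In DMSO, 18 of these had a median under 10 counts, among them RPS18, a gene of the small ribosomal subunit that every cell uses, which was at 0 to 2 counts in all libraries. BAK1 and ITPR3 had medians of 389 and 2362 counts in DMSO. Single libraries stood out for single genes there, KIFC1 with 109 counts in P-SiaFNEtoc replicate 2, CUTA with 395 in Fucotrim II replicate 2, PHF1 with 69 in Fucotrim II replicate 1 and VPS52 with 35 in DMSO replicate 2. The low counts of KIFC1 can therefore not be read as low expression, and the cause was not tested.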
